A study of Mus musculus with 20 samples.

Results

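The comparison described here sets CD4 single-positive (CD4SP) thymocytes labelled as a double knockout of Id2 and Id3 (dKO) against control CD4SP thymocytes. Its members are the genes whose larger average normalized count in these groups was at least 10, which is 14470 of the 39179 genes of the table. The smallest larger average among the members was 10.0008 and the largest among the genes left out was 9.9979. RNA-seq had been run on 20 libraries in 5 groups, and the comparison rests on 5 control and 3 dKO libraries. All of these mice were labelled C57BL/6, and the cells were sorted from the thymus as CD4+ TCRb+ CD8-. The labels give the control libraries as wild type and the dKO libraries as Id2_Id3_dKO. The methods of the study describe the dKO animals as IL7R-Cre mice with floxed alleles of both genes (Id2 fl/fl and Id3 fl/fl), in which Cre made from the Il7r locus deletes them from lymphoid progenitors onward. The text of the study gives an age of 8 wk and calls the control animals littermates in one place and Id3+/- in another, so the control genotype at Id3 differs between the sources. The label of the sort names no CD1d tetramer, so NKT cells may be present in either group. By tetramer staining, the study found invariant NKT cells to be a small fraction of the CXCR5+ CD4SP cells in such dKO mice. Their share in the libraries compared here is not given.

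Id proteins are helix-loop-helix proteins without a DNA-binding region. They bind E proteins, the factors encoded by Tcf3, Tcf4 and Tcf12, and keep them off the E-box sequences at which E proteins regulate thymocyte genes. In the thymus, signals from the pre-TCR and the TCR raise Id3 and so lower E protein activity as cells are selected, and without Id2 and Id3 this brake is missing. The question of the comparison is which genes differ in CD4SP cells of animals in which both genes were targeted.

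The deposited table holds 1 average per group and no value per library. The values below are therefore the authors' group averages of normalized counts, with no spread between libraries and no test, and "higher" and "lower" compare averages only. A log2 ratio is log2 of the dKO average plus 1 over the control average plus 1. It was called higher or lower when past 2-fold. In bulk RNA, fewer cells of a type and less RNA per cell cannot be told apart.

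The deleted genes were compared first. Id2 had an average of 2293 in control and 6.82 in dKO cells (log2 ratio -8.20). Id3 had an average of 1991 in control and 879.7 in dKO cells (log2 ratio -1.18). Id2 was thus close to absent from the dKO average while Id3 stood at a lower level that was still well above 0, and whether the remaining Id3 reads come from an undeleted part of the gene cannot be told from a whole-gene value. Il7r, the IL-7 receptor alpha chain and the locus that carries Cre, had 3997 in control and 311 in dKO cells (log2 ratio -3.68). Of the other family genes, Id1 had 26.4 in control and 13.2 in dKO cells. Tcf3, which encodes E2A, had 3084 in control and 1856 in dKO cells (log2 ratio -0.73). Tcf12, which encodes HEB, had 1728 in control and 1792 in dKO cells, and Tcf4, which encodes E2-2, had 252 in control and 42.7 in dKO cells (log2 ratio -2.53).

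The label of the sort was checked against 17 CD4SP identity genes, of which 4 were lower (Cd4, Zbtb7b, Cd8a and Cd8b1) and 0 higher. Trac, the TCR alpha constant gene, had 7953 in control and 7477 in dKO cells, and Cd3e, a CD3 chain, had 10429 in control and 9475 in dKO cells. The CD8 genes, which the sort should leave low, were low in both groups. Cd8a had 128 in control and 19.2 in dKO cells, and Cd8b1 had 588 in control and 212 in dKO cells. Cd4 itself had 15039 in control and 6565 in dKO cells (log2 ratio -1.20), and Zbtb7b, the CD4 lineage factor ThPOK, had 6635 in control and 3099.9 in dKO cells (log2 ratio -1.10). Both were thus expressed in the dKO average at a level past 2-fold below the control.

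The groups also differed in sex-linked genes. Xist, the RNA that coats the inactive X chromosome, had 10461 in control and 19.7 in dKO cells (log2 ratio -8.98). Of the 7 members on the Y chromosome, 3 were higher and 1 lower in dKO cells. Ddx3y had 663 in control and 1478 in dKO cells, Eif2s3y had 250.3 in control and 935 in dKO cells and Uty had 101 in control and 284 in dKO cells, while Kdm5d was within 2-fold (0.26 in log2 ratio). The lower gene, named after its value was seen, was the predicted gene Gm47283, with 8449 in control and 4145 in dKO cells. Over the 9 sex-linked members of the list, 1 was lower (Xist) and the median was 0.04. The control average held both Xist and Y-linked reads and the dKO average almost no Xist, so the sex of the animals and the genotype cannot be told apart. Leaving out the X and Y chromosomes gave 1977 higher and 1396 lower genes.

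Across all members, 2037 of 14470 genes were higher past 2-fold in dKO cells (14.1%) and 1455 were lower (10.1%). Past 4-fold, 851 were higher (5.88%) and 390 were lower (2.7%). Past 10-fold, 321 were higher (2.22%) and 88 were lower (0.608%). The larger the difference, the more the higher genes outnumbered the lower ones. The remaining 10978 genes (75.9%) were within 2-fold, and the median log2 ratio was 0.02 with quartiles of -0.43 and 0.54. The share past 2-fold differed with the level. Among the 2479 genes with a larger average from 10 to 30, 22.8% were higher and 15.6% lower. The shares were 24.6% and 16.1% from 30 to 100, 6.97% and 7.16% of the 2584 genes from 1000 to 3000, and 10.2% and 8.22% from 3000 upward. The summed averages were 13456863 in control and 14293055 in dKO cells, and the 100 genes with the highest average held 20.0% and 23.5% of them.

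**Figure D1:**
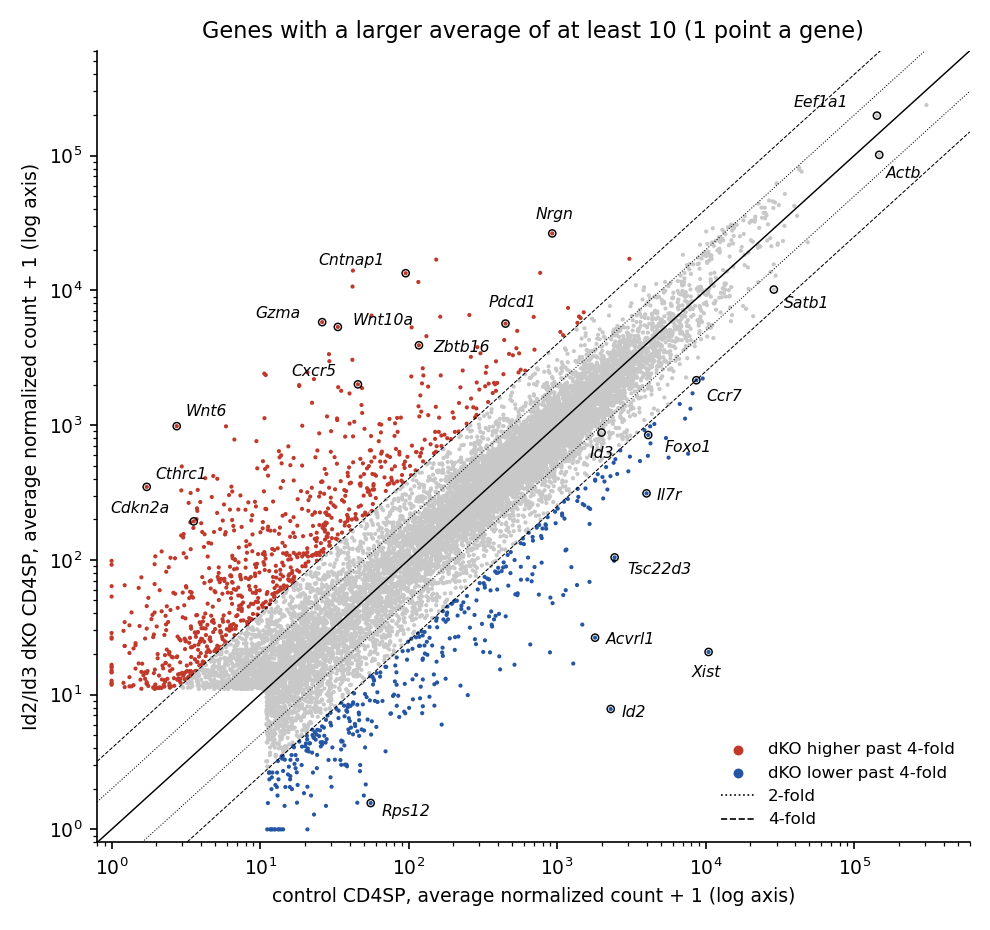
Average normalized count plus 1 of each of the 14470 member genes in control (x) and dKO (y) CD4SP cells, both on log axes, with lines at equality, 2-fold and 4-fold. The 851 genes past 4-fold higher (red) fan out toward control averages near 0, while Xist and Id2 lie farthest below the lower 4-fold line and Id3 lies just past the 2-fold line.

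The genes with the highest ratios were described among 9432 genes with a symbol and a larger average of at least 100. In that set, 179 genes were higher past 10-fold and 42 were lower past 10-fold. Wnt6, a WNT ligand, had 1.74 in control and 981 in dKO cells (log2 ratio 8.48). Fbn2, which encodes the matrix protein fibrillin-2, had 9.67 in control and 2412 in dKO cells (log2 ratio 7.82). Gzma, the protease granzyme A, had 25.2 in control and 5809 in dKO cells (log2 ratio 7.79). All 3 were nearly silent in control cells and were well read in dKO cells. Gpr25, an orphan G protein-coupled receptor, had 9.91 in control and 2353 in dKO cells, and 41.6% of its exon bases are also exon of an antisense gene that was higher as well. Cthrc1, a secreted glycoprotein, had 0.724 in control and 347 in dKO cells. Wnt10a, the neighbouring WNT ligand of Wnt6, had 32.4 in control and 5351 in dKO cells. Cntnap1, an adhesion protein of myelinated axons, had 94.5 in control and 13400.5 in dKO cells.

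Nos1, the neuronal nitric oxide synthase, had 28.1 in control and 3361 in dKO cells (log2 ratio 6.85). Homer2, a postsynaptic scaffold, had 17.3 in control and 1980.5 in dKO cells, and Ptpn5, the tyrosine phosphatase STEP, had 28.3 in control and 2979.7 in dKO cells. None of these had a control average above 30. Cpeb1, a regulator of polyadenylation and translation, had 1.97 in control and 493 in dKO cells. Krt17, a keratin, had 1.95 in control and 327 in dKO cells. Stc2, the secreted hormone stanniocalcin-2, had 19.8 in control and 2467 in dKO cells, and Hdc, the enzyme that makes histamine, had 17.3 in control and 1949.7 in dKO cells. Plac8 had 55.3 in control and 6501 in dKO cells, Parm1 had 4.89 in control and 978 in dKO cells, Garem1, an adaptor of receptor tyrosine kinases, had 5.71 in control and 781 in dKO cells and Fam84a had 9.7 in control and 1125 in dKO cells.

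**Figure D2:**
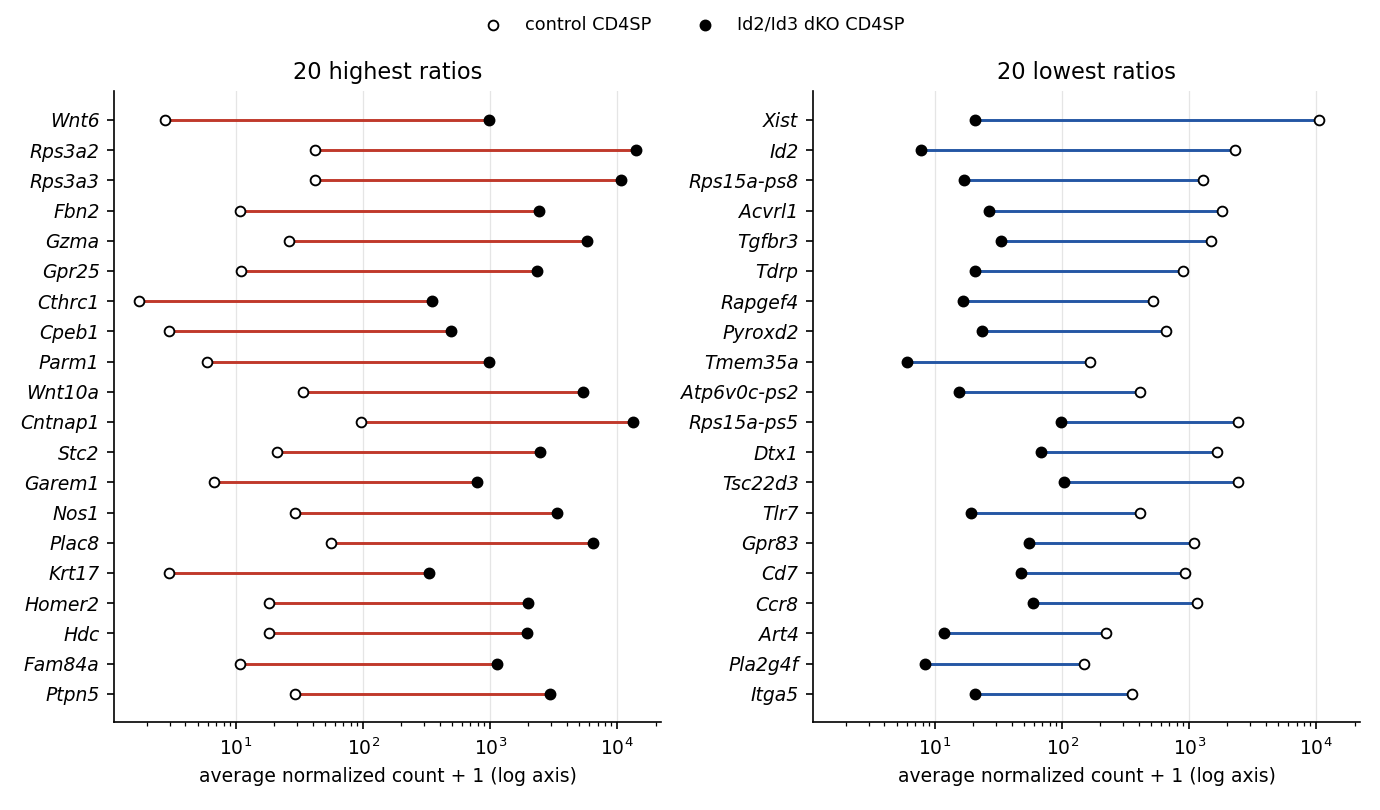
Average normalized count plus 1 (log axis) in control (open) and dKO (filled) CD4SP cells for the 20 genes with the highest and the 20 with the lowest log2 ratio among genes with a symbol and a larger average of at least 100. The lines span control averages under 100 to dKO averages of 327 to 14021 on the left, and control averages of 148 to 10461 to dKO averages of 4.99 to 103 on the right.

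The 20 lowest ratios were led by Xist, Id2 and the pseudogene Rps15a-ps8. Acvrl1, a type I receptor of the TGFbeta family, had 1799 in control and 25.5 in dKO cells (log2 ratio -6.09). Tgfbr3, the co-receptor betaglycan, had 1476 in control and 32.1 in dKO cells (log2 ratio -5.48). Rapgef4, an exchange factor for RAP1 that senses cyclic AMP, had 515 in control and 15.7 in dKO cells (log2 ratio -4.95). All 3 had dKO averages under 40. Dtx1, a NOTCH pathway ubiquitin ligase, had 1649.9 in control and 67.7 in dKO cells. Tsc22d3, the glucocorticoid-induced leucine zipper protein, had 2437 in control and 103 in dKO cells. Tlr7, a sensor of single-stranded RNA on the X chromosome, had 407 in control and 18.2 in dKO cells. Among surface molecules, Ccr8 had 1141 in control and 58.6 in dKO cells, Cd7 had 931 in control and 46.7 in dKO cells, Gpr83 had 1098 in control and 53.8 in dKO cells and Itga5, the alpha chain of the fibronectin receptor, had 352 in control and 19.6 in dKO cells. The rest of the lowest 20 were Tdrp (894 in control and 19.6 in dKO cells), the oxidoreductase Pyroxd2 (658 in control and 22.6 in dKO cells), Tmem35a (166 in control and 4.99 in dKO cells), Art4 (222 in control and 10.7 in dKO cells), the phospholipase Pla2g4f (148 in control and 7.28 in dKO cells) and 3 pseudogenes.

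For the 5 highest and the 5 lowest genes, the averages in the other 3 groups of the table were set beside these values. Id3 KO, TFH and lymphoma libraries had been scaled together with them by the authors. Per the study's text, the TFH cells were sorted from spleens of immunized wild-type mice, and the lymphomas arose in aged mice. Tissue, immunization or age thus differed as well for the TFH and lymphoma groups. Wnt6 had an average of 18.5 in Id3 KO CD4SP cells, 6.15 in TFH cells and 203 in dKO lymphomas. Fbn2 had 75.7, 88.6 and 866 in the same order, and Gzma had 365, 42.9 and 21911. All 3 genes were therefore lower in Id3 KO and TFH averages than in the dKO average, and Gzma alone of them was higher in lymphomas than in dKO cells. Acvrl1 had 899, 22.9 and 60.3, and Tgfbr3 had 1123, 720.1 and 36.7. Id2 had 1764, 1628 and 30.5. Xist had 5059.97, 9909 and 10477, so the dKO CD4SP group alone held almost none of it.

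Ribosomal protein genes and pseudogenes stood at both ends of this order, and their single rows are uncertain because reads shared by near-identical copies are divided between rows by the counting. Rps3a2 had 41.1 in control and 14021 in dKO cells, and Rps3a3 had 40.9 in control and 10668 in dKO cells. Their parent gene Rps3a1 had 33162 in control and 23249 in dKO cells. Summed over these 3 rows, the averages were 33244 in control and 47938 in dKO cells (log2 ratio 0.53), so the sum differed far less than either copy did. Rps15a-ps8 had 1282 in control and 16 in dKO cells and Rps15a-ps5 had 2418 in control and 97.4 in dKO cells, while Rps15a had 9164 in control and 21793 in dKO cells. The 9 rows of that family summed to 12989 and 22015 (log2 ratio 0.76). Rps3a2 averaged 72.8, 34.4 and 11031 in Id3 KO, TFH and lymphoma libraries, Rps3a3 67.8, 69.6 and 4931, and Rps15a-ps8 1722, 18.9 and 530.5. Atp6v0c-ps2, the third pseudogene of the lowest 20, had 412 in control and 14.4 in dKO cells. Over the 505 processed pseudogenes among the members, 152 were higher and 45 lower with a median of 0.50, and the same uncertainty applies to them.

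The genes were also ordered by the gain in normalized counts rather than by ratio. Eef1a1, an elongation factor, had 142221 in control and 198008 in dKO cells (log2 ratio 0.48). Rplp0, a ribosomal stalk protein, had 42616 in control and 81412 in dKO cells (log2 ratio 0.93). Hsp90ab1, a chaperone, had 30027 in control and 62233 in dKO cells (log2 ratio 1.05), and Eef2, the other elongation factor, had 44296 in control and 75932 in dKO cells. Among the 10 largest gains, Nrgn, a calmodulin-binding protein known from neurons, stood apart in that its average was 926 in control and 26461 in dKO cells (log2 ratio 4.84). The others were Rpsa, Rpl4, Tpt1, Pabpc1 and Rps3, with log2 ratios from 0.61 to 0.96. The largest losses were led by Actb, with 147442 in control and 101299 in dKO cells (log2 ratio -0.54), and by the nuclear RNA Malat1, with 48681 in control and 22738 in dKO cells (log2 ratio -1.10). Satb1, a chromatin organizer of thymocytes, had 28784 in control and 10139 in dKO cells (log2 ratio -1.51). Tcf7, which encodes the factor TCF-1, had 27336 in control and 13671 in dKO cells, and Ets1 had 22568 in control and 11483 in dKO cells (log2 ratio -0.97). Arhgef1 (-1.20), Arhgap45 (-0.88), Chd3 (-1.36) and Itm2a (-1.22) made up the list with Xist, each given by its log2 ratio.

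The promoters of these genes were read for the E-boxes that E proteins bind. RefSeq promoters of GRCm38.p6, from 250 bases before to 50 bases after a start, were matched by symbol to 10243 of the 14470 members. The letters CAGCTG, which read the same on both strands, were in a promoter of 17.9% of these members. CACCTG or its reverse complement CAGGTG was in 21.6%, and any of the 3 in 34.6%, and these letters cannot overlap one another. Of all 32851 promoters in the table, 32.9% held any of them. Among members past 4-fold higher, 254 of 548 held one (46.4%), and among members past 4-fold lower, 113 of 243 did (46.5%). Members within 2-fold held one in 32.4%. The share was thus about the same in both directions and above that of all members. Promoters of the higher and lower sets also had fewer CpG dinucleotides, with a median of 5 and 4 per 100 bases against 6.67 in all members, and the part of base composition in the shares was not tested.

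Of the 20 highest genes, 11 had a promoter in the table and 7 held an E-box in the 250 bases before the start. Of the 20 lowest, 12 had one and 5 held it. The 4 promoters with more than 1 match are shown, since they hold the most E-boxes among these genes. The matches are in capitals, each run is 5′ to 3′ on the strand of the gene and ends just before the start, and a match is a description of letters and not a bound site. On GRCm38.p6 the Gzma stretch is chr13:113100982-113101231, minus strand. The Homer2 stretch is chr7:81692966-81693215, minus strand, at a RefSeq start inside the span of the gene. The Rapgef4 stretch is chr2:71980965-71981214, plus strand. The Gpr83 stretch is chr9:14859960-14860209, plus strand.
Gzma: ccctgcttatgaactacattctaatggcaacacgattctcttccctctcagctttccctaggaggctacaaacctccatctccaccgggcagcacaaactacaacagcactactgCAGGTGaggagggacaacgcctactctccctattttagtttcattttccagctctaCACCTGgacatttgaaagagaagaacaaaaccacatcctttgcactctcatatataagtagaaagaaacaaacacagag
Homer2: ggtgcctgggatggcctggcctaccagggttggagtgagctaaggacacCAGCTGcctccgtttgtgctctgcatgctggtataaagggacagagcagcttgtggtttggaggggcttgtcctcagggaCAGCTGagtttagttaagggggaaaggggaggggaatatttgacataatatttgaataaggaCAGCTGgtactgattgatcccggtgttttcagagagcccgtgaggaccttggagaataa
Rapgef4: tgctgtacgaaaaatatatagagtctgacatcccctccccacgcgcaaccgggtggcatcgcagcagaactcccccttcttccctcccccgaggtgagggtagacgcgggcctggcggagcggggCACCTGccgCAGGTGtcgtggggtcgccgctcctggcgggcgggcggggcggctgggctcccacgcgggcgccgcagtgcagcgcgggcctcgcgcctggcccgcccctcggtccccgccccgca
Gpr83: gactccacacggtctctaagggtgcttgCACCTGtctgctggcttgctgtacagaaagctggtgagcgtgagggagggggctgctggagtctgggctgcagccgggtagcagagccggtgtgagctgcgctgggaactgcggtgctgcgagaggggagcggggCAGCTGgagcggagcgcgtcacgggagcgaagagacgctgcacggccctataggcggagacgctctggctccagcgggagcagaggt
In Homer2 all 3 matches were CAGCTG. Gzma had the CAGGTG and CACCTG forms, and Rapgef4 had CACCTG and CAGGTG a few bases apart. Gpr83 had 1 CACCTG and 1 CAGCTG. Gzma and Homer2 were among the highest and Rapgef4 and Gpr83 among the lowest genes. As these 4 were picked for their matches, they do not show how common the motif is in either direction.

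Gene lists were then described by the share of their members past 2-fold, to be read against 14.1% higher and 10.1% lower over all members and a median of 0.02. Among 29 lineage factors of TFH and innate T cells, 7 were higher, 10 were lower and the median was 0.06. Zbtb16, which encodes PLZF, the factor of NKT and other innate T cells, had 116 in control and 3912 in dKO cells (log2 ratio 5.06). Tox2 had 134 in control and 1185 in dKO cells (log2 ratio 3.13), and Sox13, known from gamma delta T cells, had 127 in control and 778 in dKO cells (log2 ratio 2.60). Eomes had 37.2 in control and 138 in dKO cells, Egr2 had 1173 in control and 3379 in dKO cells and Maf had 188 in control and 417 in dKO cells, and Nfil3 (1.25 in log2 ratio) was the last of the higher genes. Bcl6, the factor that directs TFH cells, had 529.9 in control and 549 in dKO cells (log2 ratio 0.05), which is close to equal. Gata3 had 2332 in control and 3311 in dKO cells and Prdm1, which encodes Blimp-1, a repressor that opposes Bcl6, had 38.3 in control and 32.1 in dKO cells. On the lower side, Runx3 had 1154 in control and 118 in dKO cells (log2 ratio -3.27). Bach2 had 4082 in control and 591 in dKO cells (log2 ratio -2.79), and Irf4 had 930.5 in control and 321 in dKO cells. Rora (-1.60), Tbx21 (-1.44), Sox4 (-1.25), Ikzf3 (-1.12), Zfp683 (-1.78) and Zbtb7b were also lower, given here by their log2 ratios.

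**Figure D3:**
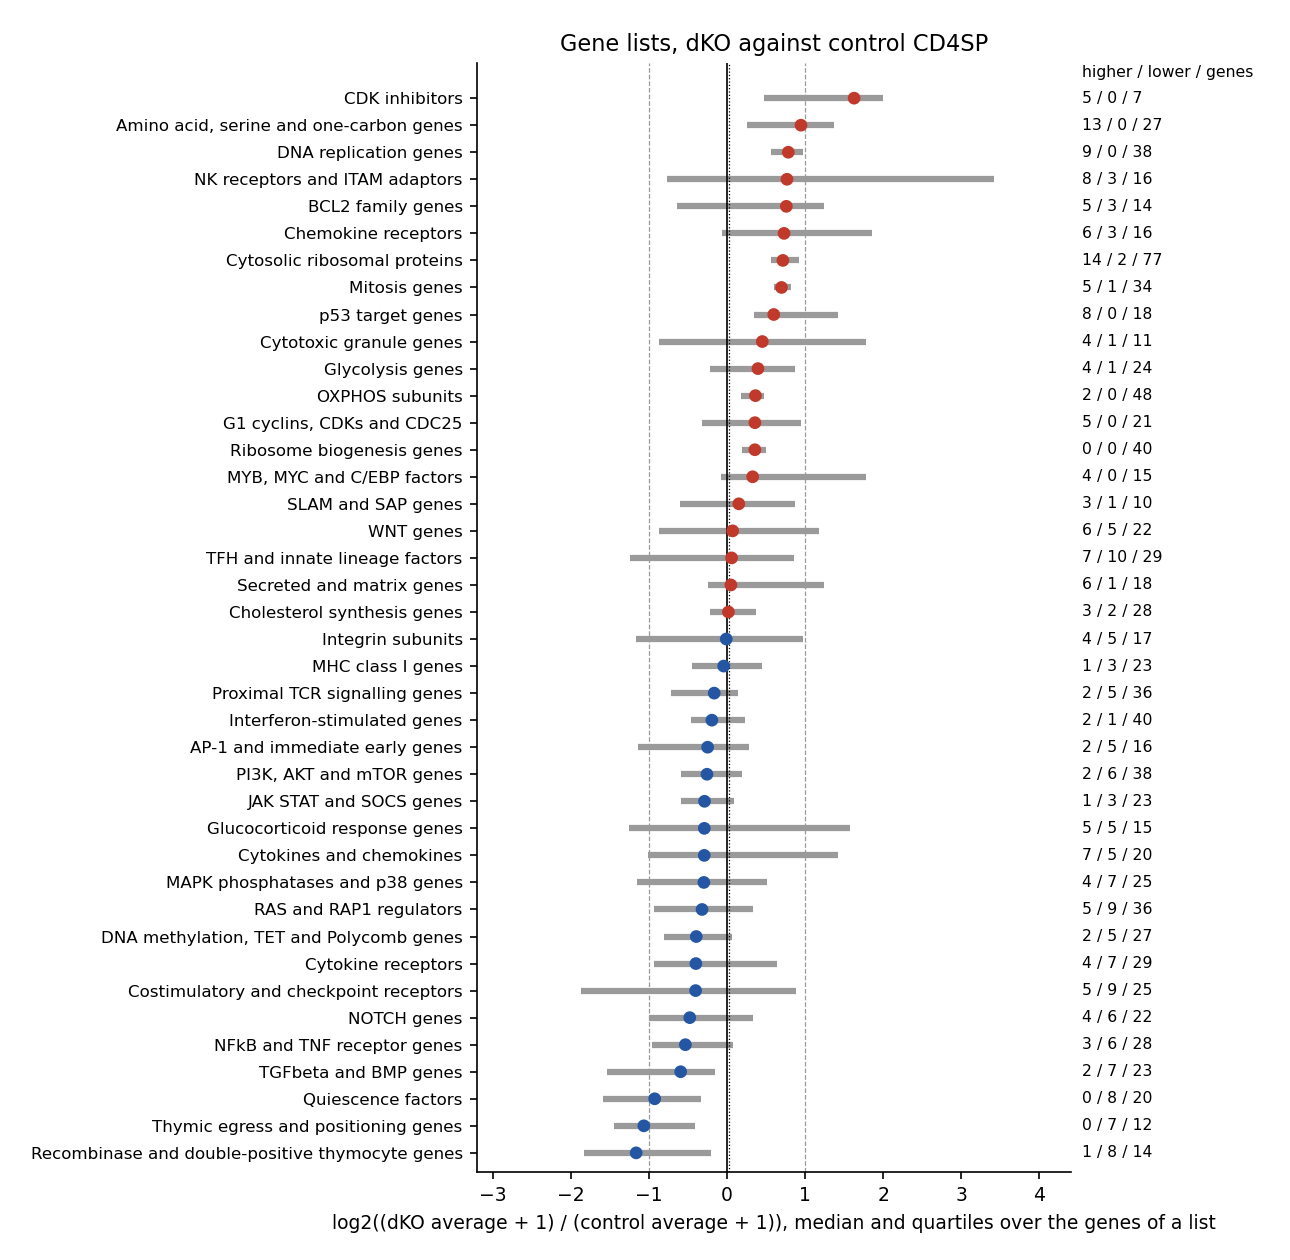
Median (point) and quartiles (bar) of the log2 ratio over the genes of each list with at least 7 members, in order of the median (lists of other cell types and of checks are not drawn), with dashed lines at 2-fold and a dotted line at the median of all members. The columns at the right count genes higher, genes lower and all members of the list, from CDK inhibitors (5, 0 and 7) to recombinase and double-positive thymocyte genes (1, 8 and 14).

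Factors that keep lymphocytes at rest were lower or within 2-fold in the dKO average. Of 20 quiescence factors, 8 were lower, 0 were higher and the median was -0.93. Foxo1, the FOXO factor that drives Il7r and Klf2 in T cells, had 4103 in control and 843 in dKO cells (log2 ratio -2.28). Foxo3 had 1247 in control and 605 in dKO cells (log2 ratio -1.04) and Foxo4 had 810.3 in control and 371 in dKO cells (log2 ratio -1.12). All 3 FOXO genes were thus past 2-fold lower. Foxp1 had 4343 in control and 1211 in dKO cells, Klf3 had 809 in control and 219.9 in dKO cells and Txnip, an inhibitor of glucose uptake, had 5604 in control and 1425 in dKO cells. Klf2 had 4467 in control and 3677 in dKO cells (log2 ratio -0.28), within 2-fold. Btg2 (0.53), Tob1 (0.60), Tob2 (0.04) and Klf4 (0.42) were the 4 genes of the list with a log2 ratio above 0, and all of them were within 2-fold.

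Genes of thymic egress and positioning, a list that holds genes of differing roles, were lower or within 2-fold as well. Of 12 genes, 7 were lower and 0 higher, with a median of -1.07. S1pr1, the sphingosine 1-phosphate receptor needed for exit, had 2748 in control and 1053 in dKO cells (log2 ratio -1.38). Gpr18 had 1137 in control and 117 in dKO cells, Plxnd1 had 1592 in control and 504 in dKO cells and Cd69 had 1609 in control and 797 in dKO cells. Among the 16 chemokine receptors, 6 were higher and 3 lower. Cxcr5, which guides cells to follicles, had 44.6 in control and 2006 in dKO cells (log2 ratio 5.46). Ccr10 had 32.5 in control and 1911 in dKO cells (log2 ratio 5.83). Cxcr4 had 474 in control and 3377 in dKO cells (log2 ratio 2.83) and Ccr2 had 67.8 in control and 408 in dKO cells. In contrast, Ccr7, which guides mature thymocytes to the medulla and to T cell zones, had 8653 in control and 2152 in dKO cells (log2 ratio -2.01), and Ccr8 and Ccr6 were the other lower genes. Ccr9 (0.45) and Ccr4 (0.66) were within 2-fold, and Cxcr3 was nearly equal, with 85.3 in control and 83.5 in dKO cells. Ccr10 lies inside the span of Cntnap1 on the opposite strand without a shared exon base, and the sources do not say whether the counting used strand.

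**Figure D4:**
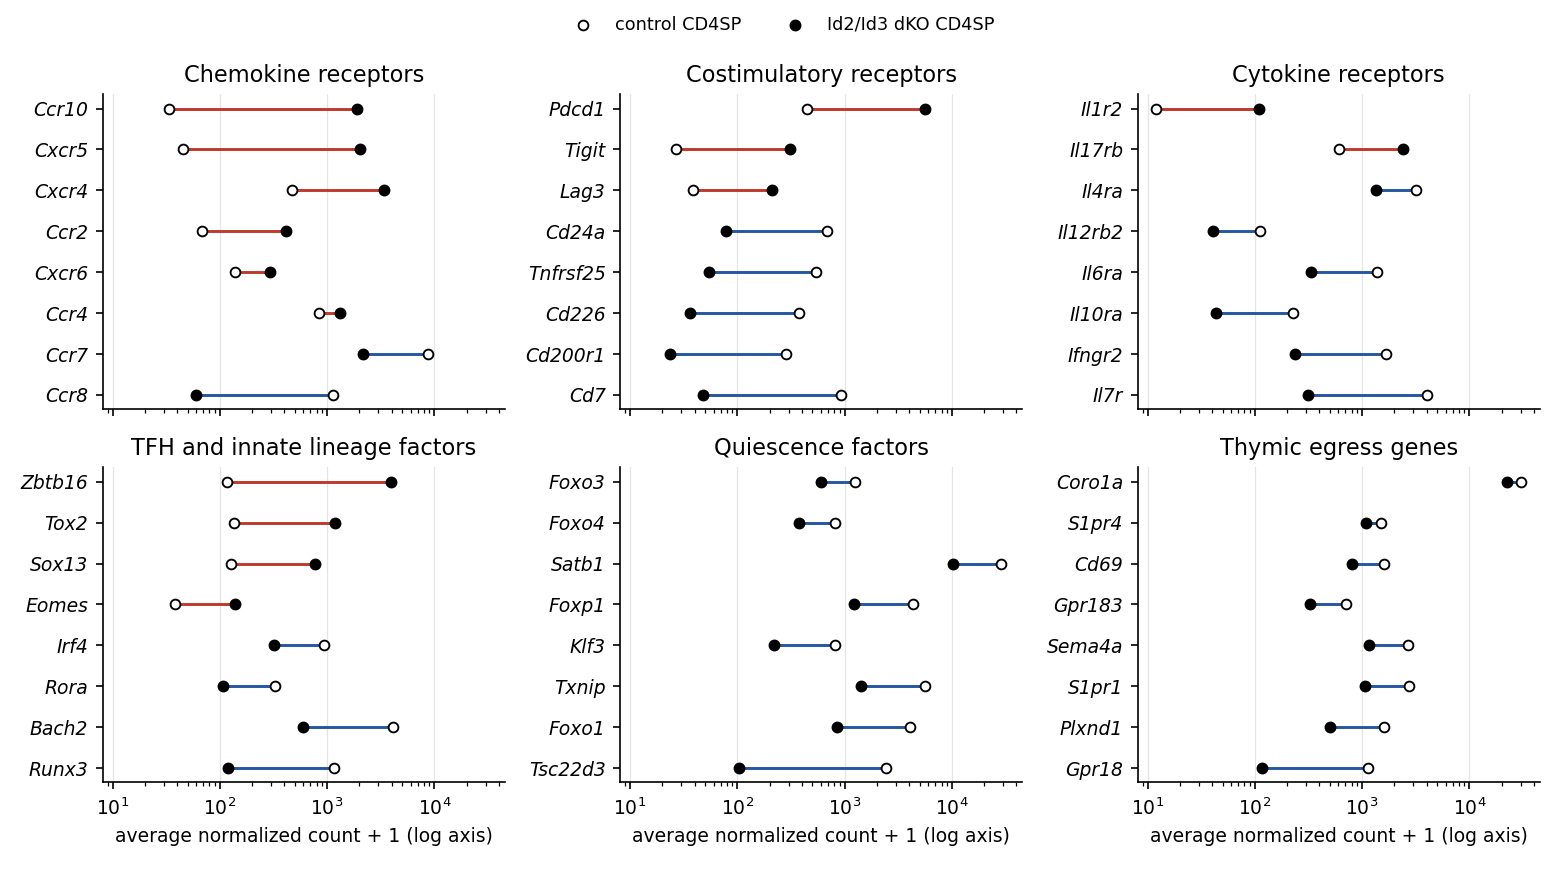
Average normalized count plus 1 (log axis) in control (open) and dKO (filled) CD4SP cells for the 8 genes with the largest log2 ratio in size in each of 6 lists, among reported genes with a larger average of at least 100. Red lines run to a higher and blue lines to a lower dKO average, and the quiescence and thymic egress panels hold blue lines only.

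Costimulatory and checkpoint receptors split into a small higher and a larger lower set. Of 25 genes, 5 were higher and 9 lower. Pdcd1, which encodes PD-1, had 448 in control and 5668 in dKO cells (log2 ratio 3.66). Tigit had 26 in control and 308 in dKO cells (log2 ratio 3.52) and Lag3 had 38 in control and 207 in dKO cells (log2 ratio 2.42). These inhibitory receptors and Cd200 (1.37) and Tnfrsf9 (1.01) were the higher genes. Icos (0.90) and Cd28 (0.88) were within 2-fold. Cd226, the activating receptor that competes with TIGIT for ligands, had 375 in control and 35.2 in dKO cells (log2 ratio -3.38). Cd200r1 had 283 in control and 22.7 in dKO cells, Tnfrsf25 had 539 in control and 53.8 in dKO cells and Cd24a, a marker of immature thymocytes, had 680.3 in control and 77.3 in dKO cells. Tnfrsf4 (-1.89), Vsir (-1.87), Cd96 (-1.48), Tnfrsf18 (-1.36) and Cd7 were the remaining lower genes. In the SLAM family, which innate T cells need for selection, 3 of 10 genes were higher and 1 lower. Slamf6 had 531 in control and 3716 in dKO cells (log2 ratio 2.81) and Sh2d1a, which encodes the adaptor SAP, had 829.7 in control and 1674 in dKO cells (log2 ratio 1.01). Slamf1 had 611 in control and 188 in dKO cells (log2 ratio -1.69), so members of this family differed in direction.

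Among 20 cytokine genes, 7 were higher and 5 lower. Il4 had 16.8 in control and 178 in dKO cells (log2 ratio 3.33), and Il21, the TFH cytokine, had 109 in control and 419.6 in dKO cells (log2 ratio 1.94). Csf1, the macrophage growth factor, had 18.2 in control and 988 in dKO cells (log2 ratio 5.69). Tnfsf14 had 68.6 in control and 535 in dKO cells, and Il13, Ifng and Tgfb3 were past 2-fold higher at low dKO averages of 27.7, 15 and 76.2. Lta had 385 in control and 97.4 in dKO cells (log2 ratio -1.97) and Ltb, its partner in lymphotoxin, had 6064 in control and 2508 in dKO cells (log2 ratio -1.27). Of 29 cytokine receptor genes, 4 were higher and 7 lower. Besides Il7r, the lower genes were Ifngr2 with 1666 in control and 238 in dKO cells, Il6ra with 1375 in control and 335 in dKO cells, Il10ra with 225 in control and 42.2 in dKO cells, Il12rb2 with 109.97 in control and 39.6 in dKO cells (40.0% of its exon bases are also exon of Serbp1 on the other strand), Il4ra with 3182 in control and 1343 in dKO cells and Ifnar1 with 2373 in control and 1019.6 in dKO cells. Il17rb, a receptor of IL-25, had 605 in control and 2379.8 in dKO cells (log2 ratio 1.97). Il1r2 had 11 in control and 109 in dKO cells. Il2ra (-0.53), Il2rb (0.25) and Il2rg (-0.40) were within 2-fold.

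Genes of cytotoxic cells differed in both directions. Of 11 granule genes, 4 were higher and 1 lower. Besides Gzma, Cst7, the protease inhibitor cystatin F, had 42 in control and 1058 in dKO cells (log2 ratio 4.62) and Srgn, the granule proteoglycan serglycin, had 1050.1 in control and 4913 in dKO cells (log2 ratio 2.22). Gzmb had 48.9 in control and 0.783 in dKO cells (log2 ratio -4.81), in the opposite direction to Gzma. Prf1, which encodes perforin, had 62.6 in control and 31.1 in dKO cells and Nkg7 had 159.8 in control and 89.2 in dKO cells. Cytotoxic granule genes made up 0.0410% of the summed averages in control and 0.121% in dKO cells. Of 16 NK receptor and adaptor genes, 8 were higher and 3 lower. Klra1 had 22 in control and 2194 in dKO cells (log2 ratio 6.57), Klra3 had 16.9 in control and 281 in dKO cells and Klra9 had 64.3 in control and 613 in dKO cells, and reads of this closely related Ly49 family may have been divided between copies. Klrb1a had 2.76 in control and 240.1 in dKO cells, and Fcer1g, an ITAM adaptor, had 8.23 in control and 269 in dKO cells. Klrk1, which encodes NKG2D, had 54.9 in control and 4.05 in dKO cells and Klrb1c, the NK1.1 antigen gene, had 73.7 in control and 38.1 in dKO cells.

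In the TGFbeta and BMP list, 7 of 23 genes were lower, 2 were higher and the median was -0.60. Besides Acvrl1 and Tgfbr3, Eng, the co-receptor endoglin, had 384 in control and 37.5 in dKO cells (log2 ratio -3.32) and Smad7, a feedback inhibitor of the pathway, had 1652 in control and 184 in dKO cells (log2 ratio -3.16). Skil had 2736 in control and 831 in dKO cells and Smurf2, a ubiquitin ligase of the receptors, had 1362 in control and 530.3 in dKO cells, and Acvr1, a type I receptor, had 24 in control and 3.92 in dKO cells (log2 ratio -2.34). The main receptor Tgfbr2 had 4784 in control and 6277 in dKO cells, and Smad2 (-0.17), Smad3 (-0.14) and Smad4 (-0.60) were within 2-fold. The higher genes were Bmp7, a ligand, with 90.1 in control and 347 in dKO cells, and Bmpr2 with 57.6 in control and 126 in dKO cells. In the WNT list, 6 of 22 genes were higher and 5 lower. All of the higher genes were ligands or Frizzled receptors. Besides Wnt6 and Wnt10a they were Fzd6 at 2.73 in control and 199.6 in dKO cells, Fzd7 at 9.43 in control and 109.7 in dKO cells, Fzd5 at 25.4 in control and 61.5 in dKO cells and Wnt10b at 3.6 in control and 25.6 in dKO cells. The lower genes were the receptor-removing ubiquitin ligases Znrf3 (568 in control and 87.9 in dKO cells, log2 ratio -2.68) and Rnf43 (171 in control and 35.1 in dKO cells), the co-receptor Lrp5 (358 in control and 89.1 in dKO cells), Wls, which WNT ligands need for secretion (466 in control and 173 in dKO cells), and Wnt5b. Axin2, a common target of the pathway, had 439.9 in control and 238 in dKO cells (log2 ratio -0.88), and Ctnnb1, beta-catenin, had 4364 in control and 5126 in dKO cells. In the NOTCH list, 6 of 22 genes were lower and 4 higher, with a median of -0.48. Notch1 had 3451 in control and 1627 in dKO cells (log2 ratio -1.08) and Lfng, a sugar transferase that tunes NOTCH, had 4317 in control and 1687 in dKO cells (log2 ratio -1.36), while Hes5 had 4.47 in control and 71.3 in dKO cells and the ligand Jag2 had 66.4 in control and 232 in dKO cells.

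Signalling lists below the TCR and cytokine receptors had medians below 0. The PI3K, AKT and mTOR list had 6 lower and 2 higher of 38 genes, with a median of -0.26. Pik3ip1, an inhibitor of PI3K, had 2257 in control and 878 in dKO cells (log2 ratio -1.36), and the regulatory subunit genes Pik3r1, Pik3r3 and Pik3r5 had log2 ratios of -1.12, -1.57 and -1.84. Rps6ka2, an RSK kinase, had 125 in control and 2336 in dKO cells (log2 ratio 4.22), the largest ratio of the list. Akt1 (0.20), Akt2 (-0.17), Mtor (-0.26) and Rptor (0.70) were within 2-fold. Hif1a, which encodes a factor of the hypoxia response and of glycolysis, had 1357 in control and 2932 in dKO cells (log2 ratio 1.11). Of 36 RAS and RAP1 regulators, 9 were lower and 5 higher. Rasgrp2 had 5626 in control and 573 in dKO cells (log2 ratio -3.29) and Rasa3 had 4511 in control and 1018 in dKO cells (log2 ratio -2.15), an exchange factor and a GTPase-activating protein, whereas the inhibitors Spry1 and Spry2 had log2 ratios of 2.31 and 2.59.

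The MAPK list had 7 lower and 4 higher of 25 genes, led by Gadd45b (277 in control and 38 in dKO cells, log2 ratio -2.83) and by its relative Gadd45g in the other direction (117 in control and 1159 in dKO cells, log2 ratio 3.30). In the NFkB list, 6 of 28 were lower and 3 higher, with a median of -0.54. Among the lower genes, Bcl3 had 1179 in control and 282 in dKO cells and Rel had 507 in control and 212 in dKO cells. Tnfaip3, the feedback inhibitor A20, had 1402 in control and 713 in dKO cells, within 2-fold. Of 36 proximal TCR genes, 5 were lower, 2 were higher and the median was -0.17. Lck (0.01), Zap70 (0.60) and Lat (-0.31) were within 2-fold, Ubash3a had 2320.4 in control and 606 in dKO cells and Nfatc1 had 2025 in control and 4881 in dKO cells (log2 ratio 1.27). TCR-induced nuclear factors differed in direction. Nr4a1 had 5274 in control and 1604 in dKO cells (log2 ratio -1.72) and Nr4a3 had 1862 in control and 656 in dKO cells, whereas Egr2 and Egr3 (257 in control and 548 in dKO cells, log2 ratio 1.09) were higher and Egr1 (0.22) was within 2-fold. The AP-1 list had 5 lower and 2 higher of 16 genes, and the JAK, STAT and SOCS list had 3 lower and 1 higher of 23, with Stat4 at 436 in control and 151 in dKO cells and Socs5 at 189 in control and 617 in dKO cells.

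Genes of the BCL2 family differed in both directions, with 5 higher and 3 lower of 14. Pmaip1, which encodes the death-promoting protein NOXA, had 14.5 in control and 695 in dKO cells (log2 ratio 5.49). Bbc3, which encodes PUMA, had 384 in control and 1041 in dKO cells (log2 ratio 1.44), and Bmf had 123 in control and 279.7 in dKO cells. Bcl2l11, which encodes BIM, the main killer of self-reactive thymocytes, had 1622 in control and 244 in dKO cells (log2 ratio -2.73). The survival genes Bcl2 (3463 in control and 1643 in dKO cells, log2 ratio -1.08) and Bcl2l1 (751 in control and 315 in dKO cells, log2 ratio -1.25) were lower too, and Mcl1 had 7955 in control and 4276 in dKO cells (log2 ratio -0.90). Bcl2a1b was higher, with 293 in control and 735 in dKO cells. Of 18 p53 target genes, 8 were higher and 0 lower, with a median of 0.60. Perp had 4.26 in control and 79 in dKO cells, Phlda3 had 36.9 in control and 323 in dKO cells and Ccng1 had 1534 in control and 3921 in dKO cells (log2 ratio 1.35). Trp53 itself had 3693 in control and 3497 in dKO cells (log2 ratio -0.08), and Mdm2 had 1283 in control and 1355 in dKO cells (log2 ratio 0.08).

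DNA replication and mitosis genes had log2 ratios that were nearly all above 0. All 38 DNA replication genes had a log2 ratio above 0, with 9 past 2-fold and a median of 0.78 (quartiles 0.56 to 0.97). Mcm6, a subunit of the replicative helicase, had 1459.7 in control and 4392 in dKO cells (log2 ratio 1.59). Rrm2, a ribonucleotide reductase subunit, had 645 in control and 2007 in dKO cells (log2 ratio 1.64), and Tyms, thymidylate synthase, had 407 in control and 1032 in dKO cells. Of 34 mitosis genes, 33 were above 0, 5 were past 2-fold and the median was 0.70. Ccnb1, cyclin B1, had 191 in control and 470.3 in dKO cells (log2 ratio 1.29) and Mki67 had 2179 in control and 3029 in dKO cells (log2 ratio 0.47). Kif23 was the exception, with 753 in control and 277 in dKO cells (log2 ratio -1.44). Of the 21 genes of G1 control, 12 were above 0, 5 were higher and 0 lower past 2-fold. Cdc25b, a phosphatase that activates CDKs, had 554 in control and 3408 in dKO cells (log2 ratio 2.62), Ccne1, cyclin E1, had 288 in control and 747 in dKO cells (log2 ratio 1.37) and E2f2 had 849 in control and 2041 in dKO cells (log2 ratio 1.26). Ccnd2 and Ccnd3, the D cyclins of thymocytes, had log2 ratios of -0.97 and -0.37.

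CDK inhibitors had the highest median of the lists in the plot of list medians, 1.63, with 5 higher of 7. Cdkn2a, which encodes p16Ink4a and p19Arf, had 2.57 in control and 192 in dKO cells (log2 ratio 5.76), and its neighbour Cdkn2b had 1.9 in control and 12.1 in dKO cells. Cdkn2c had 263 in control and 814 in dKO cells (log2 ratio 1.63). The inhibitors with the largest control averages were within 2-fold. Cdkn1b, which encodes p27, had 2682 in control and 1798 in dKO cells (log2 ratio -0.58) and Cdkn2d had 1367 in control and 1065 in dKO cells (log2 ratio -0.36). Of 15 MYB, MYC and C/EBP factors, 4 were higher and 0 lower. Myb had 694 in control and 6351 in dKO cells (log2 ratio 3.19) and Cebpb had 41.3 in control and 529 in dKO cells (log2 ratio 3.65), with 20.7% of its exon bases shared with Tmem189, and Cebpa and Cebpd were the others at low averages of 45.6 and 28.1. Myc had 1576 in control and 3015 in dKO cells (log2 ratio 0.94), within 2-fold.

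**Figure D5:**
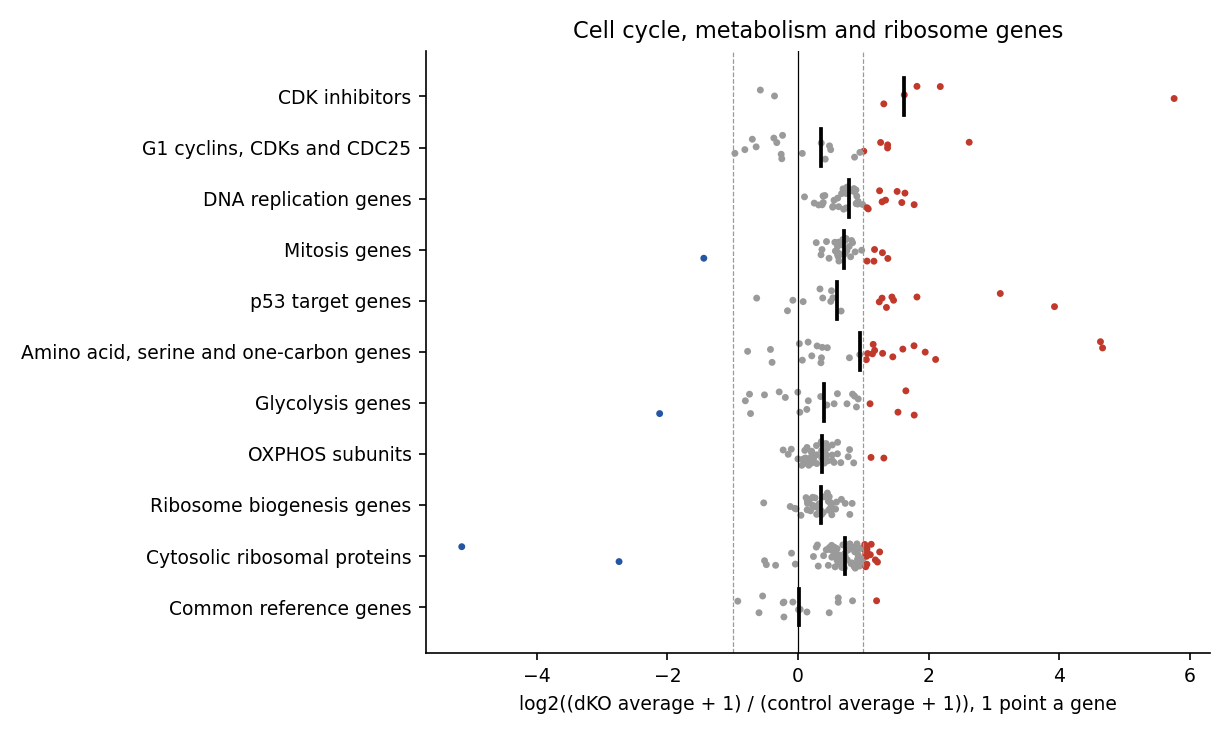
Log2 ratio of each member gene (point) in 10 lists of cell cycle, metabolism and ribosome genes and in 15 common reference genes, with a bar at each median and dashed lines at 2-fold. Most DNA replication, mitosis and ribosomal protein genes sit right of 0, around medians of 0.78, 0.70 and 0.71, with exceptions such as Rps12 at -5.15, Rps16 at -2.74 and Kif23 at -1.44, while the reference genes centre on 0.01.

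The ribosome and metabolism lists had small differences, mostly in one direction. Of 77 cytosolic ribosomal protein genes, 70 were above 0, 14 were higher and 2 lower past 2-fold, and the median was 0.71. They made up 6.39% of the summed averages in control and 10.0% in dKO cells. The lower genes, Rps12 (54.5 in control and 0.568 in dKO cells, log2 ratio -5.15) and Rps16 (3612 in control and 540.2 in dKO cells, log2 ratio -2.74), are among those whose reads are divided with copies. Summed over its 3 rows, the Rps16 family had 18585 in control and 30358 in dKO cells. Rows on the higher side can be affected too, such as Rps15a, whose family of 9 rows summed to a log2 ratio of 0.76. All 40 ribosome biogenesis genes were within 2-fold, and 36 were above 0 with a median of 0.35. Ncl, nucleolin, had 7767 in control and 10962 in dKO cells (log2 ratio 0.50) and Npm1, nucleophosmin, had 6059.5 in control and 9601 in dKO cells (log2 ratio 0.66). Of 48 subunits of oxidative phosphorylation encoded in the nucleus, 44 were above 0 and 2 were higher past 2-fold, Ndufa4 (1177 in control and 2927 in dKO cells, log2 ratio 1.31) and Cox8a (1468 in control and 3186 in dKO cells, log2 ratio 1.12).

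Uptake and synthesis of amino acids held the largest share of higher genes among the metabolic lists, 13 of 27 (0 lower), with a median of 0.95. Slc43a1, a transporter of large neutral amino acids, had 47.7 in control and 1229.9 in dKO cells (log2 ratio 4.66). Asns, asparagine synthetase, had 5.68 in control and 164 in dKO cells (log2 ratio 4.63). Slc7a5, the leucine transporter, had 818 in control and 2008 in dKO cells (log2 ratio 1.29) and Slc38a1, a glutamine transporter, had 1527 in control and 5231 in dKO cells (log2 ratio 1.78). The one-carbon enzymes Mthfd2 (495 in control and 1507 in dKO cells, log2 ratio 1.60), Shmt2 (843 in control and 1858 in dKO cells, log2 ratio 1.14) and Mthfd1l (436 in control and 983 in dKO cells, log2 ratio 1.17) were higher, whereas Shmt1 (274 in control and 529 in dKO cells, log2 ratio 0.95) and Mthfd1 (823 in control and 916 in dKO cells, log2 ratio 0.15) were within 2-fold. Of 24 glycolysis genes, 4 were higher and 1 lower. Tpi1 had 652 in control and 2238 in dKO cells (log2 ratio 1.78), Pgam1 had 698 in control and 2016 in dKO cells (log2 ratio 1.53) and Slc16a3, a lactate exporter, had 116 in control and 367 in dKO cells (log2 ratio 1.65), while Ldhb had 1876 in control and 431 in dKO cells (log2 ratio -2.12). The glucose transporter genes Slc2a1 (0.35) and Slc2a3 (-0.74) were within 2-fold. Of 28 cholesterol synthesis genes, 3 were higher and 2 lower, with a median of 0.02. Fasn, fatty acid synthase, had 2547 in control and 5439 in dKO cells (log2 ratio 1.09), and Sqle had 74.3 in control and 26.5 in dKO cells (log2 ratio -1.45).

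Exon length moved with these ratios. Protein-coding members with a larger average of at least 100 were put into 4 equal groups by exon length. The 2386 with the shortest exons had a median log2 ratio of 0.24, and the 2386 with the longest had -0.23. Without ribosomal protein and respiratory chain genes the medians were 0.21 and -0.24. Ribosomal protein genes are short, and after the median of the matching length group was taken off, their median was 0.57, that of respiratory subunits 0.16, that of replication genes 0.77, that of quiescence factors -0.80 and that of the PI3K, AKT and mTOR list -0.04. In contrast, 4 groups by GC content of the transcripts had medians from -0.06 to 0.03, without a steady direction. From the lowest to the highest GC group, the share past 2-fold went from 5.66% to 12.7% higher and from 5.20% to 9.30% lower. The part of exon length in the single genes was not tested further.

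Among the other lists, the recombinase and double-positive list was mostly lower. In the rest fewer members differed, or both directions were held. Of 40 interferon-stimulated genes, 2 were higher and 1 lower, with a median of -0.20. Oas1a had 245 in control and 1025 in dKO cells (log2 ratio 2.06) and Gbp4 had 3086 in control and 1392 in dKO cells (log2 ratio -1.15). Of 23 MHC class I genes, 1 was higher and 3 lower. Cd1d1, which presents lipids to NKT cells, had 863 in control and 206 in dKO cells (log2 ratio -2.06), and Nlrc5, the transactivator of the class, had 3345 in control and 1182 in dKO cells (log2 ratio -1.50), whereas H2-Q6 (342 in control and 1484 in dKO cells, log2 ratio 2.11) is a row of a family with near-identical copies. Of 27 DNA methylation, TET and Polycomb genes, 5 were lower, 2 were higher and the median was -0.40. Tet1 had 976 in control and 186 in dKO cells (log2 ratio -2.38), Tet3 had 3266 in control and 1199 in dKO cells (log2 ratio -1.44) and Uhrf1, the partner of the maintenance methylase, had 847 in control and 2043 in dKO cells (log2 ratio 1.27). Of 17 integrin subunits, 4 were higher and 5 lower, with a median of -0.01. Among the lower ones, Itga4 had 2224 in control and 621 in dKO cells (log2 ratio -1.84), Itgb7 had 5539 in control and 1991 in dKO cells (log2 ratio -1.48) and Itgb3 had 4995 in control and 2226 in dKO cells (log2 ratio -1.17). Glucocorticoid response genes were split evenly, with 5 higher and 5 lower of 15. Klf9 had 36.4 in control and 298 in dKO cells (log2 ratio 3.00) and Fkbp5 had 916 in control and 1573 in dKO cells (log2 ratio 0.78), within 2-fold. Tsc22d3, Il7r, Txnip, Pik3ip1 and Dusp1 were the lower genes. In the recombinase and double-positive list, 8 of 14 were lower and 1 higher, with a median of -1.17. Besides Cd4, Cd8a, Cd8b1, Cd24a and Cd1d1, the lower genes included Trat1 (-1.38) and Ets2 (-1.13). Dntt, the terminal transferase of rearranging cells, had 326 in control and 219.8 in dKO cells, and Rag1 had a log2 ratio of -0.08, both within 2-fold. Arpp21 had 46.7 in control and 252 in dKO cells (log2 ratio 2.41), against the rest of the list. Of 18 secreted and matrix genes, 6 were higher and 1 lower, with Timp2 at 1932 in control and 4339.8 in dKO cells and Mmp9 at 137 in control and 8.64 in dKO cells.

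The antigen receptor loci differed by locus. Of the 12 TCR gamma rows of the table, 11 were members and all 11 were higher. Their sum was 163 in control and 3484 in dKO cells. Tcrg-C4 had 39 in control and 1717 in dKO cells (log2 ratio 5.42). Tcrg-C1 had 48.2 in control and 519 in dKO cells (log2 ratio 3.40), Tcrg-C2 had 46.3 in control and 561 in dKO cells (log2 ratio 3.57) and the variable segment Tcrg-V1 had 3.73 in control and 292 in dKO cells (log2 ratio 5.95). Constant and variable gamma segments were thus higher side by side, in cells sorted for TCRb. The 9 TCR delta rows summed to 65.5 in control and 6.92 in dKO cells. Of 97 TCR alpha V segments, 16 were higher and 36 lower, yet their sum was 4867 in control and 4853 in dKO cells. Of 20 TCR beta V segments, 1 was higher and 9 lower, and reads of similar V segments may have been divided between rows. The study reports that alpha and beta V usage in dKO CD4SP cells differed from mouse to mouse. A group average cannot show how many mice the difference of a segment rests on.

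Markers of other cells were read in both averages, and their part in the results above was not tested. The 14 B cell marker rows summed to 1337 in control and 7897 in dKO cells, of which Ighm held 1183 and 7408. Fcrla had 1.49 in control and 103 in dKO cells and Igkc had 9.41 in control and 170.3 in dKO cells, while the defining marker Ms4a1 (6.72 and 9.13) was below the minimum and Cd79a was equal (38.3 and 38.8). Of 9 members of that list, 4 were higher and 0 lower. Of 10 germinal center and plasma cell genes, 5 were higher, among them Jchain with 2.53 in control and 51.5 in dKO cells. Xbp1 was within 2-fold, with 985 in control and 1959.9 in dKO cells. Of 8 myeloid genes, 3 were higher, and the list summed to 1635 in control and 2032 in dKO cells, most of it Cst3 and Cd74. Lyz2, a defining macrophage gene, was below the minimum with 3.82 in control and 7.7 in dKO cells. Basophil and mast cell markers summed to 108 in control and 1976 in dKO cells, nearly all of it Hdc in dKO cells, with Cpa3 at 8.1 and Kit at 82.2 in control and 7.26 in dKO cells. Granulocyte rows summed to 25.9 in control and 17.8 in dKO cells and erythroid and platelet rows to 77.9 in control and 39.4 in dKO cells. Among thymic epithelial and stromal genes, 3 of 7 were higher. Epcam, which thymocytes also express, had 70.7 in control and 593 in dKO cells, Col1a1 had 24.7 in control and 377 in dKO cells and Aire had 7.17 in control and 33.7 in dKO cells, while Col1a2 had 7.9 in control and 8.32 in dKO cells.

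Of 11 NK and gamma delta T cell markers, 5 were higher and 4 lower. The higher genes were the 3 gamma constant genes, Sox13 and Eomes. The lower ones included Gzmb, Klrk1 and Klre1, so this list differed in both directions. Of 8 CD8 T cell markers, 5 were lower and 1 higher, Eomes. Of 14 regulatory T cell markers, 5 were higher and 4 lower. Foxp3, the defining gene, had 591 in control and 280.5 in dKO cells (log2 ratio -1.07), and Gpr83 and Ikzf4 (-1.77) were lower with it. Izumo1r, the folate receptor 4 of regulatory and TFH cells, had 3064 in control and 17138 in dKO cells (log2 ratio 2.48), and Nrp1 (1.20) and Lrrc32 (1.53) were higher. Ctla4 (-0.42) and Il2ra were within 2-fold. Among 15 common reference genes 1 was higher, Gusb, with 593 in control and 1366 in dKO cells (log2 ratio 1.20), and the median was 0.01.

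Position along the chromosome was read last, a look chosen after the values were seen. Of 9313 protein-coding members with a larger average of at least 100 (predicted genes left out), 382 were higher past 4-fold. Of these, 70 (18.3%) had a next gene, among these 9313, that was also higher past 4-fold, against 748 of all 9313 genes (8.03%). For lower genes the shares were 13 of 174 (7.47%) and 343 of 9313 (3.68%). The higher genes formed 39 neighbouring pairs, of which 27 lay within 100 kb and 3 overlapped. Wnt6 (chromosome 1, 74771892 to 74785322, plus strand, mm10) and Wnt10a (74791516 to 74804179, plus strand) lie 6.19 kb apart. Cthrc1 lies 38.7 kb from Fzd6 on chromosome 15. Cntnap1 (chromosome 11, 101170523 to 101190724, plus strand) holds Ccr10 within its span (101172997 to 101175443, minus strand) and overlaps Plekhh3, which had 12.4 in control and 155 in dKO cells. Trpc1 and Pls1, 2.27 kb apart on chromosome 9, had 4.13 in control and 222 in dKO cells and 12.5 in control and 576 in dKO cells. Overlapping pairs can share reads, and the part of overlap, of related copies such as Klra1 and Klra3, and of read-through was not tested.

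The genes beside the deleted loci were listed because a targeted locus can carry its neighbours with it. Their counts are to be read against 14.1% higher and 10.1% lower over all members. Within 1 Mb of Id2, 3 of 9 members were higher and 0 lower, namely Rrm2, Grhl1 and Gm16372. Grhl1 (17.8 in control and 38.8 in dKO cells) and Gm16372 (1.24 in control and 10.8 in dKO cells) had low averages. Rrm2 is also in the DNA replication list, in which all 38 genes had a log2 ratio above 0. Within 1 Mb of Id3, 5 of 28 were higher and 7 lower. The lower genes included Runx3, Clic4 (382 in control and 81 in dKO cells, log2 ratio -2.22), Ncmap (92.3 in control and 6.48 in dKO cells, log2 ratio -3.64) and Rcan3 (1551 in control and 513 in dKO cells, log2 ratio -1.59), and Stpg1 was higher (4.38 in control and 168 in dKO cells, log2 ratio 4.97). Within 1 Mb of Il7r, 2 of 10 were lower, Spef2 (111 in control and 25.6 in dKO cells, log2 ratio -2.07) and the prolactin receptor gene Prlr (111 in control and 13 in dKO cells), and 1 was higher. Linkage to a targeted locus and the deletion of the Id genes cannot be told apart for these genes.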

How the data were processed

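RNA-seq was done on thymocytes and T cells of 20 libraries in 5 groups, of which 5 control and 3 dKO CD4SP libraries are compared here. Per the study's methods and the labels, the authors trimmed and aligned reads with OSA in Array Studio to mm10, estimated counts per gene with RSEM, normalized them with DESeq and averaged them per group. Libraries were made strand-specific. Versions, and whether the counting used strand: not given in the sources used here. Each deposited value is thus a normalized signal for 1 gene in 1 group, with no value per library, so depth per library is unknown and no test, SD or interval could be made. Columns of the authors' own comparisons (fold changes, p-values and false discovery rates against control) were not used. The number of per-sample columns left out was 0.

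From the averages, log2((dKO + 1)/(control + 1)) was computed in Python 3.11.15 with pandas 2.3.3 for the 14470 genes with a larger average of at least 10. Steps were tested on simulated data. Gene symbols were matched by identifier, and coordinates taken from GENCODE M21 on GRCm38 (mm10), for 37607 of 39179 genes, among them 14250 members. All 37 mitochondrial genes were listed at 0 in both groups. Named genes are the 20 with the highest and the 20 with the lowest ratio among genes with a symbol and a larger average of at least 100 (predicted genes and antigen receptor segments left out), the 10 largest gains and the 10 largest losses, the members of 55 gene lists with the largest ratios, and the deleted genes. The members and the lists were chosen with earlier results of these data known. Neighbouring genes, overlaps, exon length, promoter base content and sums over gene copies were looked at after values were seen. Alternatives were another pseudocount, minimum, threshold or scaling, and leaving out gene classes. A few genes are not reported here, though list counts include them.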

Additional observations from a re-analysis of the deposited data

How the results depend on the processing

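No paired analysis was possible because the table holds group averages only, and for the same reason no replicate could be left out in turn. Higher genes outnumbered lower ones under every alternative tried. Against 2037 higher and 1455 lower genes, the counts were 4381 and 3031 with no minimum, 1275 and 913 with a larger average of at least 50, 1002 and 762 with at least 100, 3383 and 2738 past 1.5-fold, and 851 and 390 past 4-fold. These alternatives count more or fewer genes by construction. With both averages scaled to equal sums, a shift of -0.09 on the log2 scale, the counts were 1794 and 1653, and the other count alternatives (pseudocounts of 0 and 5, median centring, and leaving out X and Y genes, antigen receptor segments or predicted genes) stayed within 1.5 times. Alternatives chosen after seeing the data gave 1637 and 1139 in protein-coding genes, and 1947 and 1523 with equal sums outside ribosomal protein genes. The log2 ratio of Id2 was -7.60 with a pseudocount of 5. List medians kept their sign in 46 of 55 lists. The exceptions lay near 0 (the common reference, integrin, cholesterol synthesis, secreted and matrix, sex-linked, TFH and innate factor, thymic epithelial and WNT lists), apart from the NK and gamma delta T cell markers, whose median was -0.93 and became 2.23 with a larger average of at least 50. The WNT median became -0.65 there. Subtracting the median of genes of like exon length moved no list median past the size counted as moved. With a larger average of at least 50, 7 list medians moved past that size, the WNT and NK and gamma delta medians included. The medians of B cell markers (0.60 to 3.34), NK receptors (0.77 to 3.23) and thymic epithelial genes (0.07 to 1.56) rose. Those of germinal center and plasma cell genes (1.26 to 0.51) and Id proteins (-1.18 to -4.69) fell. Ratios of genes near 0 in a group rest on the pseudocount, as for Wnt6 (7.19 with a pseudocount of 5).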

Other observations

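Several small gene groups that no list held were noticed after the values were seen, and no test was made of them. The genes of the class II peptide loader were higher in dKO cells. H2-DMa had 303 in control and 3412 in dKO cells (log2 ratio 3.49), and its neighbours H2-DMb1 and H2-DMb2 had log2 ratios of 2.72 and 2.61, while Cd74, the invariant chain, had 638 in control and 442 in dKO cells (log2 ratio -0.53). The inducible heat shock genes Hspa1a (65.1 in control and 635 in dKO cells, log2 ratio 3.27) and Hspa1b (134 in control and 1930.03 in dKO cells, log2 ratio 3.84) were higher together, and they are near-identical copies that share reads. The calcium-binding S100 genes S100a6 (53 in control and 496 in dKO cells, log2 ratio 3.20), S100a10 (1438 in control and 6232 in dKO cells, log2 ratio 2.12) and S100a11 (289 in control and 3788 in dKO cells, log2 ratio 3.71) were higher as well.

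Some single genes outside the lists, also chosen after their values were seen, had large differences. Kcnf1, a potassium channel subunit, had 104 in control and 5309.8 in dKO cells (log2 ratio 5.66). Trpc1, a cation channel, had 4.13 in control and 222 in dKO cells (log2 ratio 5.44), and Nrgn had 926 in control and 26461 in dKO cells (log2 ratio 4.84). Lox, which cross-links collagen, had 6.13 in control and 235 in dKO cells (log2 ratio 5.05).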
